A study of Caenorhabditis elegans with 32 samples.

Results

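The baseline distribution of dimethylation of histone H3 on lysine 9 (H3K9me2) was mapped in WT early embryos of Caenorhabditis elegans kept at 20 °C, from 4 of the 32 ChIP-seq libraries of the series. The 4 libraries are 2 H3K9me2 immunoprecipitations (IP) and the 2 inputs of the same replicate number, input being chromatin sequenced without immunoprecipitation. They were chosen by their labels and not by their values. Runs of at least 3 consecutive 500-bp windows in which IP exceeded input at least to a log2 ratio of 1, averaged over the replicates, were called domains. This gave 2352 domains, which held 11604 of the 200551 windows of the nuclear genome.

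The animals were of the strain N2 (Bristol), with no transgene or mutation in the labels, and chromatin came from whole early embryos, before the bean stage, in 2 independent biological replicates. The embryo pool is a mixture of cells and stages, so fewer cells carrying the mark and less mark per cell cannot be told apart. The rest of the series served only as a second readout of the same domains: 2 IP and 2 input libraries of H3K9me2 from WT exposed to 37 °C for 1 h, and 3 IP and 3 input libraries of H3K27ac, acetylation of H3 on lysine 27, from WT at 20 °C, with the same number from WT at 37 °C and from embryos with mutations of met-2, an H3K9 methyltransferase: the deletion met-2(n4256) III and met-2-CD, met-2(gw1660) III.

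H3K9me2 is a mark of silent chromatin. In worm embryos it is laid down mainly by MET-2, the homologue of the mammalian methyltransferase SETDB1, and it is found over repeats, transposons and silent tissue-specific genes. The chromosomes of C. elegans are holocentric, without a single centromere that would anchor pericentric heterochromatin. Each autosome has a gene-dense center and repeat-rich arms, and the arms are held at the nuclear periphery by a chromodomain protein that binds methylated H3K9.

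The libraries differed in depth and in the share of mitochondrial reads. After the mitochondrial genome was left out, the IP libraries of replicates 1 and 2 held 25221458 and 36096142 reads, against 6671338 and 85333594 reads in the inputs. Mitochondrial reads were 0.07% and 0.76% of the IP libraries, against 32.8% and 4.44% of the inputs, which is why all ratios are relative to nuclear totals. A window held a median of 56 and 150 reads in the IP libraries, against 28 and 443 reads in the inputs, so input 1 is the library that limits the precision of a single window. Inputs 1 and 2 also differed in 206 windows where the mean input was more than 10 times that of the median window. These windows held 6.69% and 3.72% of the IP reads, against 9.59% of the reads of input 1 and 0.75% of those of input 2, and 12 of them lie in the last 500 kb of chromosome I. In the H3K9me2 inputs of WT exposed to 37 °C the same windows held 7.24% and 13.6% of the nuclear reads. Mitochondrial reads were 32.0% and 45.0% of those inputs. In the WT H3K27ac inputs the windows held 0.65%, 0.66% and 0.67% of the nuclear reads. In this share input 1 was closer to the 37 °C H3K9me2 inputs, and input 2 to the WT H3K27ac inputs. The 206 windows touched 7 of the domains. Without them 2345 domains were called, with 88.3% of the domain windows in arms.

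At the level of single windows, log2(IP/input) was computed after scaling each library to the mean nuclear total, with a pseudocount of 2 reads. Its median was −0.84 in replicate 1 and −0.26 in replicate 2, and its SD over windows was 1.77 in replicate 1 and 0.82 in replicate 2. The replicate with the wider spread was also the one with the shallower input, but the cause of the spread was not tested. With input 2 under both IP libraries, 16.99% of replicate 1 windows reached a log2 ratio of 1, against 16.4% with input 1. A log2 ratio of at least 1 was found in 32895 windows (16.4%) in replicate 1, in 16634 windows (8.29%) in replicate 2 and in 10945 windows (5.46%) in both. Across all windows the log2 ratios of the replicates had a Pearson r of 0.66. Neighbouring windows and the shared base composition make these points dependent, and the value is a description.

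The domains covered 5.80 Mb, or 5.79% of the nuclear windows. Most were short. The median length was 2000 bp, the 25th and 75th percentiles were 1500 and 2500 bp, and 977 domains (41.5%) had the minimum of 3 windows. Only 159 domains (6.76%) reached 5 kb and 18 reached 10 kb, and those of at least 5 kb held 19.1% of the length in domains. The ends of a domain depend on the threshold: 3155 windows lay within 0.1 above it and 3342 within 0.1 below it, and a further 7938 runs of 1 or 2 windows passed it without making a domain. In domain windows the IP libraries of replicates 1 and 2 had medians of 696 and 371 scaled reads, against 178 and 159 scaled reads in the inputs. In all other windows the IP medians were 74.5 and 155 scaled reads, against 161 and 201 in the inputs. These ratios chose the domains and describe them without testing them.

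The longest domain was on the left arm of chromosome III, at chrIII:1163098-1189597 in ce10 coordinates, and spanned 26500 bp. It held 1487 and 829 scaled reads per window in the IP libraries, against 201 and 158 in the inputs, which gave log2 ratios of 2.81 and 2.35. Its lowest window was still at 1.16 in replicate 1 and 1.17 in replicate 2. The longest domain of chromosome I was at chrI:12516448-12531947 (15500 bp), with log2 ratios of 2.07 and 1.55 in replicates 1 and 2. On chromosome V it was at chrV:18650396-18663895 (13500 bp), with 2.68 and 1.59. On chromosome II it was at chrII:1124009-1134008 (10000 bp), with 2.68 and 2.44. On chromosome IV no domain reached 10 kb, and the longest, at chrIV:2383834-2392333, spanned 8500 bp with log2 ratios of 1.80 and 1.64. The longest domain of X, at chrX:16827665-16838664, spanned 11000 bp and had 2.19 and 1.17. All 6 lay in arms, between 886 and 2548 kb from the nearer chromosome end, and all passed the threshold in both replicates.

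The domains with the highest mean ratio were shorter, between 1500 and 5000 bp, and also lay in arms. On 4 autosomes both replicates carried the value. At chrIII:11957052-11960051 the IP libraries held 1833 and 774 scaled reads per window, against 180 and 122 in the inputs, with log2 ratios of 3.35 and 2.66, the highest mean of all domains. At chrIV:14207783-14210782 the ratios were 3.05 and 2.85. The IP libraries held 514 and 262 scaled reads per window there, against 91.0 and 34.3 in the inputs. Input 2 was thus lower there than in the highest domain of X, given below. At chrV:17733900-17738399 the ratios were 3.04 and 2.74, with 91.9 and 76.1 scaled reads per window in the inputs. At chrI:11403453-11404952 they were 3.06 and 2.06, with 134 and 107 in the inputs. On the remaining 2 chromosomes 1 library decided the rank. The highest domain of chromosome II, at chrII:694011-699010, held 702 and 450 scaled reads per window in the IP libraries, against 352 and 20.0 in the inputs. Its log2 ratios were 1.04 and 4.46, and the high value was that of the replicate whose input held few reads. The highest domain of X, at chrX:16758166-16762165, had ratios of 1.42 and 3.11, with 259 and 265 scaled reads per window in the IP libraries against 97.7 and 44.8 in the inputs. Gene names are not given for these regions, since no annotation in ce10 coordinates was used here.

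Domains came in close groups separated by long empty stretches. The 2346 gaps between neighbours on the same chromosome had a median of 9000 bp, with 25th and 75th percentiles of 2500 and 26500 bp. At the near end, 22.5% of the gaps were at most 2 kb and 205 were a single window. The median log2 ratio of these single windows was 0.47 in replicate 1 and 0.73 in replicate 2, and 64.4% of them were above 0 in both replicates. At the far end, 200 gaps (8.53%) exceeded 100 kb and together held 65.2% of the length between domains. When domains at most 5 kb apart were joined, 1376 of the 2352 domains (58.5%) fell into groups of at least 2, and 53 groups held 5 or more. The largest group had 15 domains in 84000 bp on the left arm of chromosome III, at chrIII:1495597-1579596, of which 67.3% was domain. The next largest held 11 domains in 60000 bp at chrI:11731451-11791450.

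**Figure D1:**
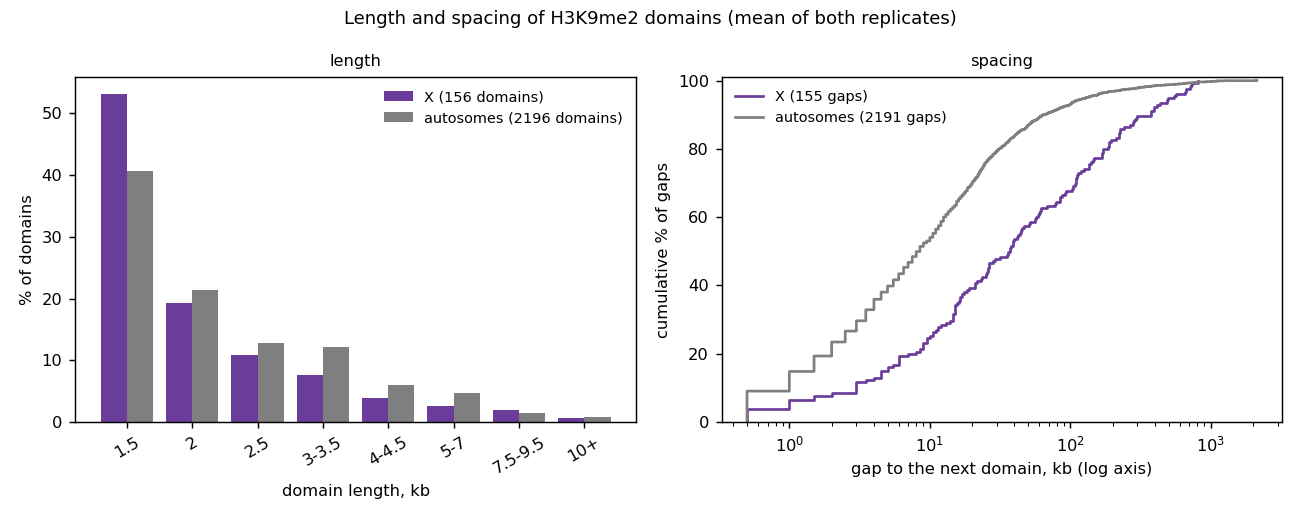
Length of H3K9me2 domains (left, percent of domains in each length class in kb) and gap to the next domain on the same chromosome (right, cumulative percent of gaps, log axis in kb), for X and for the autosomes. Most domains are of 1.5 to 2.5 kb on both, and the curve for X lies to the right of the autosomal one, with a median gap of 37000 bp on X against 8500 bp on the autosomes.

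Most of the domain windows lay in the arms. By window midpoint, tips were the outermost 500 kb at each end of a chromosome, centers the part from 33.3% to 66.7% of its length, and arms what lies between. Arms held 88.2% of the domain windows and 60.7% of all windows, tips 8.54% of the domain windows and 5.99% of all windows, and centers 3.31% of the domain windows and 33.3% of all windows. This corresponds to 33.5 domains per Mb in arms, 35.8 in tips and 2.96 in centers. Domains of at least 5 kb numbered 145 in arms and 10 in tips, against 4 in centers, and were 7.11% of the domains in arms and 4.65% in tips, against 4.04% in centers. The gaps of arms and centers differed likewise, with medians of 8000 bp in arms and 193249 bp in centers.

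The same order was seen without any domain call. The mean log2 ratio per window was −0.58 and −0.01 in the arms in replicates 1 and 2, against −1.47 and −0.51 in the centers, so arms exceeded centers by 0.89 and 0.50. The arms were above the center on all 6 chromosomes in both replicates. On the autosomes the difference lay between 0.78 on chromosome IV and 1.18 on chromosome II in replicate 1, and between 0.37 on chromosome IV and 0.74 on chromosome I in replicate 2. The share of windows at a log2 ratio of at least 1 was 20.8% and 11.9% in arms, against 7.35% and 1.12% in centers. In mean log2 ratio replicate 1 gave the larger contrast on all 6 chromosomes. The share of windows in arms was 2.84 times that in centers in replicate 1 and 10.6 times in replicate 2. That ratio was larger in replicate 2 on all 6 chromosomes. By either measure the direction was the same in both replicates.

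Tips were above centers on all 6 chromosomes in both replicates too, by 1.02 and 0.56 over the whole genome. Tips and arms could not be ordered: the difference of tips minus arms was 0.13 and 0.05 over the genome and had a negative sign on chromosomes II and IV in both replicates. On chromosome II the tips were at −0.58 and −0.11, against −0.27 and 0.09 in the arms. On X the tips exceeded the arms by 0.31 and 0.38.

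**Figure D2:**
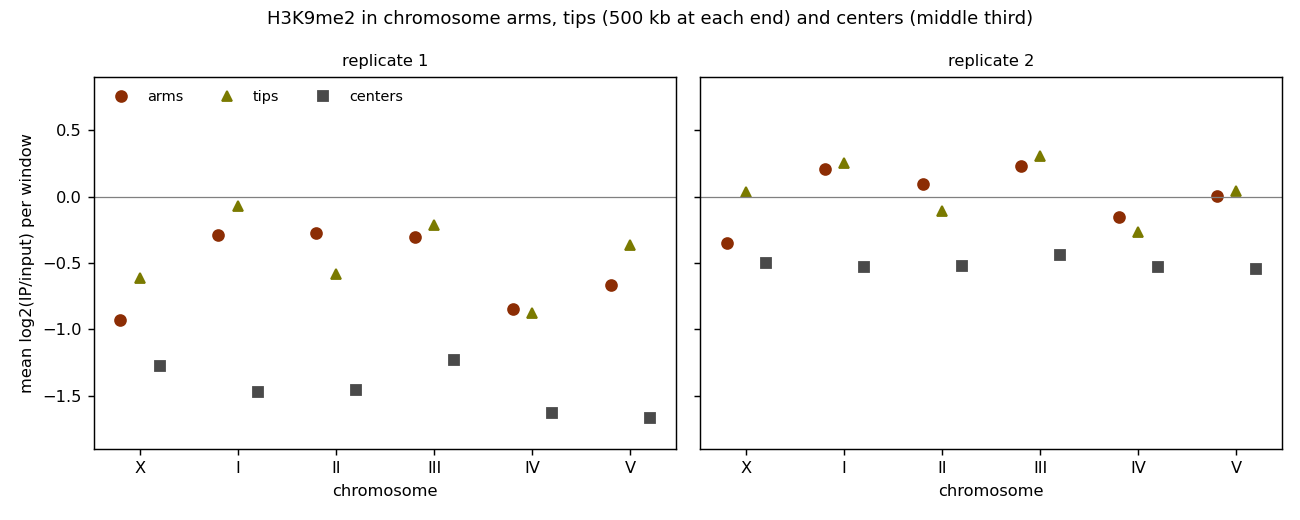
Mean log2(IP/input) per 500-bp window in arms, tips and centers of each chromosome, for replicate 1 (left) and replicate 2 (right). The center (square) is the lowest of its chromosome in every case, while tips lie above or below arms depending on the chromosome.

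Left and right arms were not alike. On chromosomes II to IV the left arm held more than the right one. On chromosome III 19.8% of the left arm and 8.36% of the right arm lay in domains, and on chromosome IV 10.8% of the left arm and 3.05% of the right. In mean log2 ratio the left arm of chromosome IV was at −0.44 and 0.09, against −1.25 and −0.40 in the right arm. Chromosome V had the opposite order, with 3.16% of the left arm and 10.9% of the right arm in domains, and log2 ratios of −0.84 and −0.19 in the left arm, against −0.49 and 0.20 in the right. Chromosome II had 14.1% of the left arm and 7.0% of the right arm in domains. Chromosome I was nearly even, with 11.9% of the left arm and 12.8% of the right arm in domains.

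When each chromosome was split into 20 equal parts, the profiles of the replicates ran in parallel, with r between 0.87 on X and 0.97 on chromosome I over the 20 parts of a chromosome. These parts share their libraries and neighbours, and the values are a description. The part with the most domains was the one from 10 to 15% of the length on chromosome III, where 38.7% of the windows lay in domains and the mean log2 ratios were 0.48 and 1.18. On chromosomes II, III and V the emptiest part held no domain at all. The longest stretch without a domain reached from 49.4% to 63.3% of chromosome II, at chrII:7545482-9673471, and spanned 2128 kb. In its 4256 windows the mean log2 ratios were −1.46 and −0.53, against −1.45 and −0.52 in the whole center of chromosome II. Of its windows 6.58% and 0.68% reached 1 in replicates 1 and 2, against 6.56% and 0.65% of that center. Over the whole of chromosome II the shares were 18.6% and 8.71%. In the mean of both replicates 75 windows of the stretch reached 1, in runs too short for a domain. The stretch was chosen by these same libraries. The corresponding stretches of the other chromosomes spanned between 813 kb on X and 1250 kb on chromosome III, and all had their midpoint within 10.5% of the chromosome's middle.

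**Figure D3:**
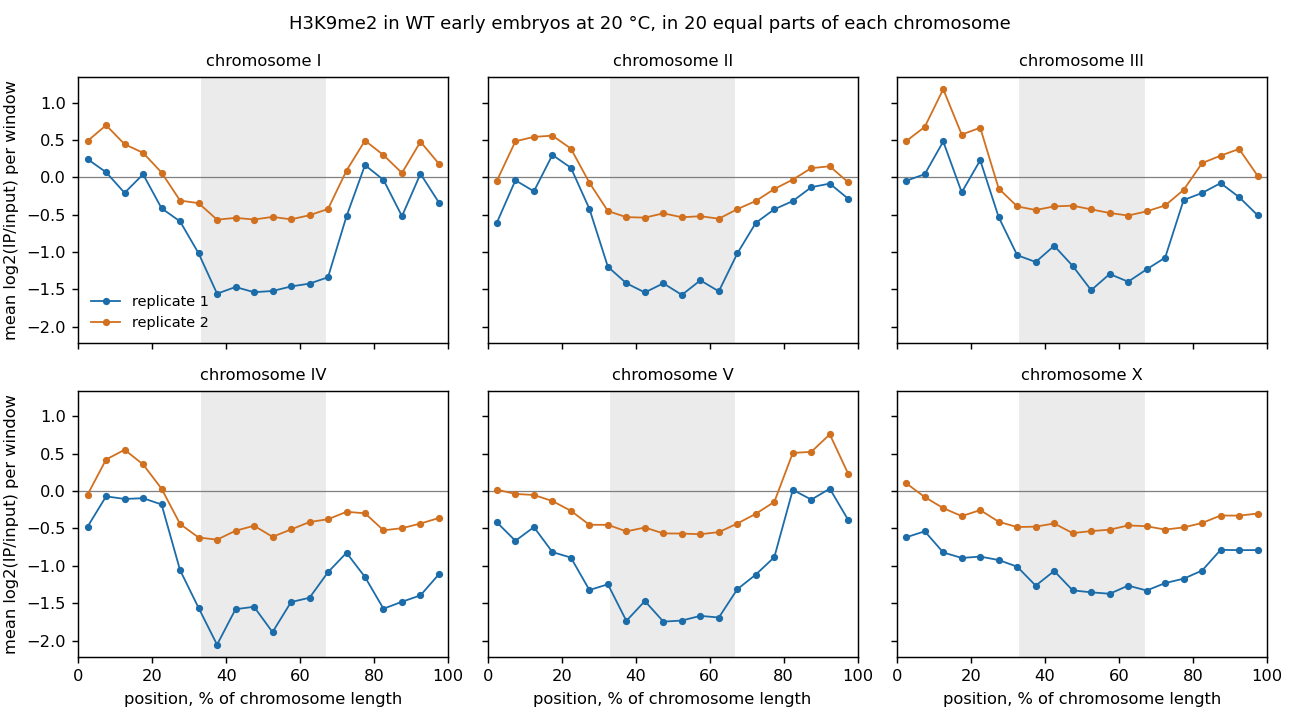
Mean log2(IP/input) per 500-bp window in 20 equal parts of each chromosome, against position in percent of chromosome length, for replicates 1 and 2. The center from 33.3% to 66.7% is shaded. Both replicates dip in the center of every autosome, from chromosome I to V, and the profile of X is the flattest.

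Chromosomes differed in how much of the mark they carried. Chromosome III had the most domains per Mb (37.2) and the largest share of windows in domains (9.67%), followed by chromosome I (33.6 per Mb, 8.35%) and chromosome II (27.4 per Mb, 6.77%). Chromosomes IV and V were close to each other, with 19.7 domains per Mb on both and 4.61% and 4.87% of the windows. In the mean log2 ratio per window, chromosomes III, I and II were at −0.61, −0.67 and −0.69 in replicate 1 and at 0.01, −0.04 and −0.12 in replicate 2. Chromosome IV, at −1.11 and −0.29, and chromosome V, at −0.98 and −0.18, were lower in both replicates.

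X carried fewer domains than the autosomes. The libraries that chose the domains give these counts, and they are a description. It had 156 domains, 8.80 per Mb, against 26.6 per Mb on the autosomes, and 1.98% of its windows lay in domains, against 6.60% on the autosomes. The median length was 1500 bp on X and 2000 bp on the autosomes, and the share of domains of at least 5 kb was 5.13% on X and 6.88% on the autosomes. Of the gaps on X 32.3% exceeded 100 kb, against 6.85% on the autosomes. Of the X domains 35.9% had a log2 ratio of at least 1 in both replicates, against 71.9% of the autosomal ones. Without replicate 2, 4.5% of the windows on X lay in domains, and without replicate 1, 1.47%.

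The difference between X and the autosomes was largest in the arms. In arms the mean log2 ratio was −0.93 and −0.35 on X in replicates 1 and 2, against −0.51 and 0.06 on the autosomes, a difference of −0.42 and −0.41. In centers X was at −1.28 and −0.50, against −1.51 and −0.52 on the autosomes, and the difference of 0.23 and 0.01 had the other sign. In tips it was at −0.61 and 0.03, against −0.42 and 0.04 on the autosomes, a difference of −0.19 and −0.01. Over the whole chromosome X was below the autosomes by −0.19 and −0.24. The tips of X held 35.0 domains per Mb, against 36.0 in autosomal tips, while its arms held 9.25 per Mb, against 38.7 in autosomal arms. Of the 35 domains in X tips, 29 were at the left end, where 13.1% of the windows lay in domains, against 2.60% at the right end.

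What both replicates supported was measured by calling domains in 1 replicate and reading them in the other, whose libraries had no part in the choice. The 3495 domains called from replicate 1 alone had a median log2 ratio of 0.89 in replicate 2, against −0.26 over all windows of replicate 2. In replicate 2, 97.8% of these domains were above 0 and 41.5% reached 1 in the mean of their windows. Of their single windows 95.2% were above 0 and 47.6% reached 1, against 36.3% and 8.29% of all windows. The 1824 domains called from replicate 2 alone had a median of 1.52 in replicate 1, against −0.84 over all windows. In replicate 1, 85.6% of them were above 0 and 68.4% reached 1 in the mean of their windows. Of their single windows 82.2% were above 0 and 66.8% reached 1, against 34.5% and 16.4% of all windows. In reads, windows of replicate 1 domains had a median of 303 scaled reads in IP 2, against 164 in input 2, and windows of replicate 2 domains had 649 in IP 1, against 195 in input 1.

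**Figure D4:**
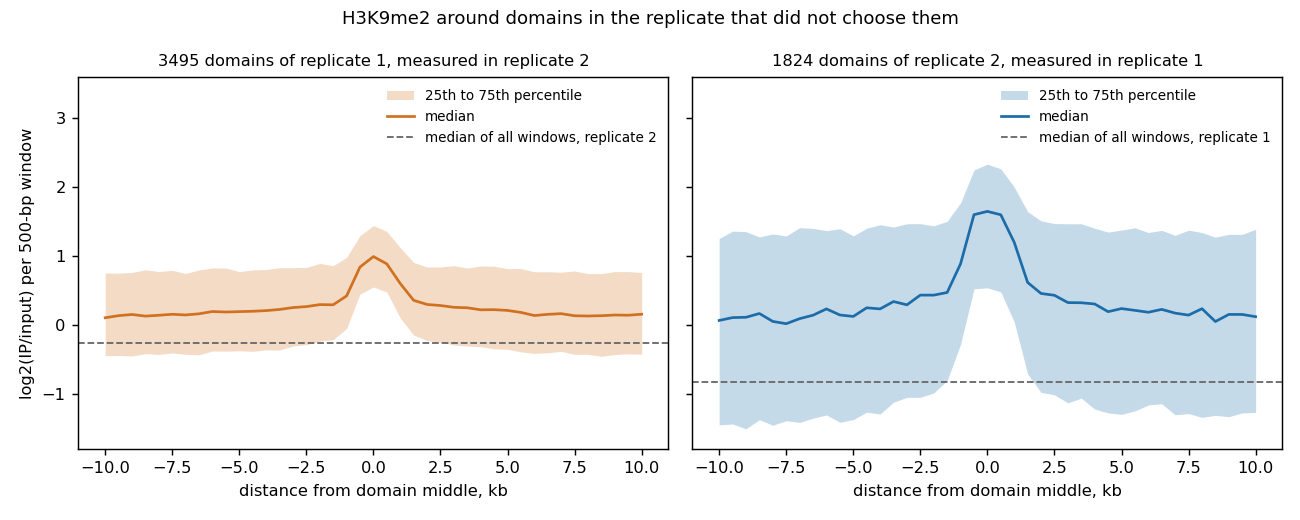
Log2(IP/input) per 500-bp window against distance in kb from the middle of domains called in 1 replicate, measured in the other replicate. Line, median. Band, 25th to 75th percentile. Dashed line, median of all windows. The median peaks at 0.99 in replicate 2 (left) and at 1.65 in replicate 1 (right) and stays above the median of all windows out to 10 kb on both sides.

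The peak in the other replicate was narrow. For domains of replicate 1 the median ratio in replicate 2 was 0.99 in the middle window. It was 0.60 at 1 kb to the right and 0.42 to the left, and 0.30 and 0.29 at 2 kb. For domains of replicate 2 the middle window was at 1.65 in replicate 1, with 1.20 and 0.89 at 1 kb and 0.46 and 0.43 at 2 kb. A domain with an even number of windows has no exact middle window, so left and right cannot be compared near the middle. The flanks did not return to the genome's median within 10 kb. There the ratios to the right and left were still 0.16 and 0.10 in replicate 2 and 0.12 and 0.06 in replicate 1. Support grew with length. Of the 181 domains of at least 10 windows called from replicate 1, 71.3% reached 1 in replicate 2, against 31.2% of the 1553 domains of 3 windows. For replicate 2 the shares were 80.3% of 188 and 65.2% of 705. It also differed by chromosome, as did the share of all windows that reached 1. In replicate 2, 54.3% of replicate 1 domains on chromosome III and 12.1% of those on X reached 1, where 13.8% and 2.68% of all windows did. The other direction gave a smaller gap. In replicate 1, 69.8% of replicate 2 domains on chromosome III and 54% of those on X reached 1, where 20.6% and 12.6% of all windows did. Of the 2352 domains of the mean, 1634 (69.5%) had a ratio of at least 1 in both replicates, 643 in replicate 1 alone and 75 in replicate 2 alone, and in 461 every window reached 1 in both.

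IP and input were then compared as shares of nuclear reads, a measure that needs no scaling between libraries. Arms took 69.8% and 65.1% of the IP reads, against 61.7% and 58.4% of the input reads, or 67.4 ± 3.3% in IP and 60.0 ± 2.4% in input (SD, n = 2 each). Centers took 18.5% and 26.0% of the IP reads, against 29.6% and 35.6% of the input reads. Tips took 11.7% and 8.86% of the IP reads, against 8.69% and 6.01% of the input reads. X took 13.0% and 14.5% of the IP reads, against 16.01% and 17.94% of the input reads. For arms, centers, tips and X both IP values lay on 1 side of both input values, and the two-sided exact permutation test gave p = 0.333 for each, also adjusted over the 4, which is the smallest p that 2 against 2 libraries allow. Without the 206 windows of high input the tips took 7.18% and 6.44% of the IP reads, against 6.1% and 5.6% of the input reads, so that the excess fell to 0.95 percentage points, against 2.95 with these windows.

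**Figure D5:**
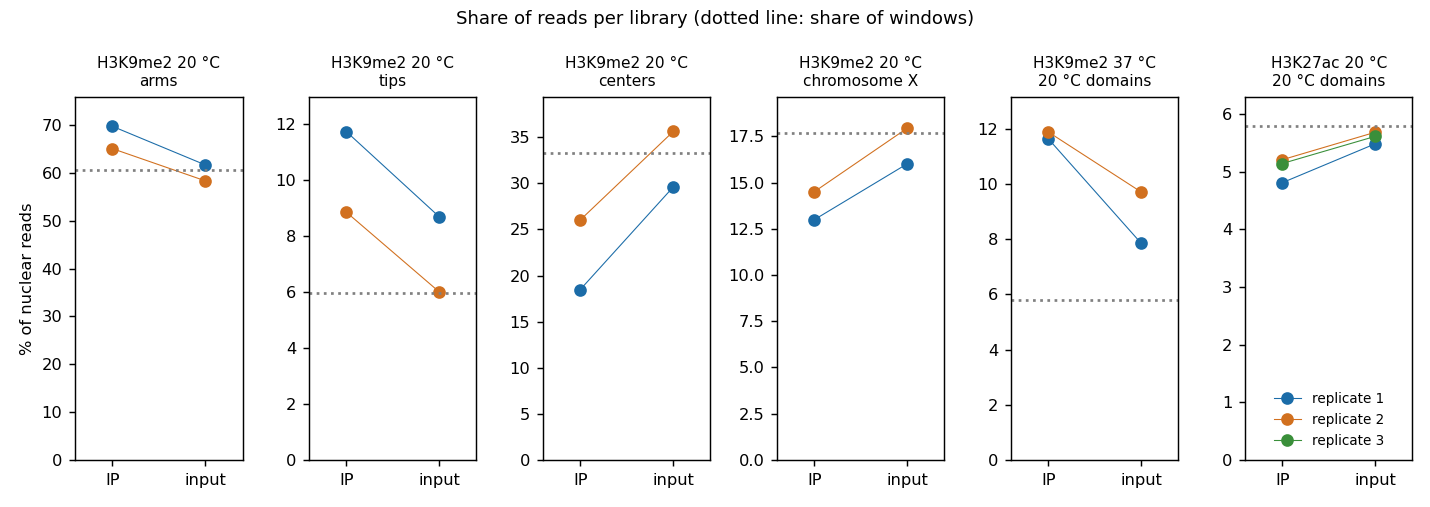
Percent of nuclear reads per library, IP left and input right, in arms, tips, centers and X for H3K9me2 at 20 °C, and in the 20 °C H3K9me2 domains for H3K9me2 at 37 °C and for H3K27ac at 20 °C. Lines join libraries of the same replicate number and the dotted line is the share of windows. IP lies above input in arms, tips and, for H3K9me2 at 37 °C, in the domains, and below input in centers, on X and, for H3K27ac, in the domains.

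Over 100-kb bins, where each library has enough reads for a test, both IP libraries were above both inputs in 250 of 1005 bins (24.9%) and below both in 519 (51.6%). Of the 250 bins 228 lay in arms, 22 in tips and 0 in centers, and of the 334 center bins 305 were below. In edgeR's quasi-likelihood test, 31 bins (3.08%) were higher and 9 bins (0.896%) lower in IP at an adjusted p under 0.01, and 16.5% of the bins were higher and 10.5% lower at an unadjusted p under 0.05. In each of the 9 lower bins input 1, relative to nuclear totals, was above input 2, at a ratio between 1.24 and 1.83. The higher bins were 29 of 609 arm bins and 2 of 62 tip bins. By chromosome they were 10 of 138 bins on III, 9 of 210 on V, 6 of 151 on I, 5 of 153 on II and 1 of 178 on X. In centers 0 of 334 bins were higher, with 0 at an unadjusted p under 0.05 and 0 by DESeq2 with either set of size factors, while 5 were lower. On chromosome IV 0 of 175 bins were higher, with 23 at an unadjusted p under 0.05 and 17 by DESeq2 with nuclear totals. The split of 31 higher and 9 lower bins depended on the model and on the scaling. With the replicate number as a block, 147 bins were higher and 372 lower, so that lower bins outnumbered higher ones, with 271 of the lower bins in centers and 19 of the higher ones on chromosome IV. Without the block it was 8 and 5 with TMM factors, 56 and 0 with totals that include mitochondrial reads, and 117 and 14 by DESeq2 with its own size factors, and the median log2 ratio of all bins was −0.03, 0.02 and −0.04 under these scalings, against −0.25 with nuclear totals. Under each of the 10 alternatives 0 center bins were higher. Leaving out 1 library gave 1 higher and 0 lower bins without IP 1, 35 and 8 without IP 2, 5 and 0 without input 1, and 7 and 19 without input 2, where lower bins were again the majority.

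The bin with the highest mean ratio, on the left arm of chromosome III at chrIII:1500097-1600095, had 4136 and 3742 reads in the IP libraries after scaling to 1000000 nuclear reads (RPM), against 1129 and 944 in the inputs (log2 ratios of 1.87 and 1.99, edgeR adjusted p = 0.0032). It contains the group of 15 domains. The lowest bin, at chrIV:6200318-6300316 in the center of chromosome IV, had 231 and 601 RPM in the IP libraries, against 811 and 982 in the inputs. Its log2 ratios were −1.81 and −0.71, and it did not pass the test (edgeR adjusted p = 0.134). The smallest p belonged to a bin singled out after its values were seen, at chrV:2400466-2500465, where 192 of 200 windows had no read in input 2 and IP had 17.4 and 19.4 RPM, against 7.5 and 9.0 in the inputs. In X 1 bin was higher, the first of the chromosome, at chrX:1-100236, with 1114 and 1255 RPM in IP, against 840 and 638 in the inputs (edgeR adjusted p = 0.0092).

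Single windows gave few calls, in a test that also made none for changed windows on simulated data with the spread estimated from these libraries. Of 197225 windows tested with edgeR, 81 (0.0411%) were higher and 164 (0.0832%) lower in IP at an adjusted p under 0.01, and 18596 (9.43%) were higher and 3964 (2.01%) lower at an unadjusted p under 0.05. The 81 comprised 68 windows in arms, 9 in tips and 4 in centers, and 69 of them lay in domains, which the same libraries had chosen. The count rested on single libraries: it was 25345 without IP 2, 263 without IP 1 and 0 without either input.

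The domains were last read in libraries that had no part in choosing them. In WT exposed to 37 °C, H3K9me2 IP libraries had 11.64% and 11.89% of their nuclear reads in the 20 °C domains, against 7.85% and 9.71% of the reads of their inputs. IP and input did not overlap here, and 2 against 2 libraries allow no p below 0.333. The order of the shares depended on the domain set. In domains called from replicate 1 alone they were 13.3% and 13.5% in IP, against 7.82% and 8.14% in input. In domains called from replicate 2 alone they were 10.5% and 10.7% in IP, against 9.41% and 13.9% in input. There the groups overlapped and the IP mean was the lower. Of the 206 windows of high input, 123 reached a log2 ratio of 1 in replicate 2 at 20 °C and 5 in replicate 1. These windows held 1.91% and 2.10% of the 37 °C IP reads, against 7.24% and 13.6% of the 37 °C input reads. Their part in the order of the shares was not tested. The median log2 ratio of windows in the domains of the mean was 0.97 and 1.06 in the 37 °C replicates, against 0.00 and 0.22 in all other windows, and 47.9% and 53.8% of the domain windows reached 1, against 3.48% and 10.3% of the others. In domains from replicate 2 alone the medians were 0.98 and 0.99, against 0.01 and 0.24 in the other windows. The 20 °C libraries that chose the domains had 28.3% and 16.1% of the IP reads in them, against 8.82% and 4.98% of the input reads.

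For H3K27ac, a mark of active promoters and enhancers, the share of reads in the domains was lower in IP than in input in WT at 20 °C. The WT IP libraries had 4.81%, 5.21% and 5.14% of their reads there, against 5.48%, 5.68% and 5.61% in the inputs, or 5.05 ± 0.21% in IP and 5.59 ± 0.10% in input (SD, n = 3 each). All 3 IP values lay below all 3 input values, and the two-sided exact permutation test gave p = 0.1, the smallest p that 3 against 3 allow. With domains called from replicate 1 alone the shares were 7.59% in IP and 7.73% in input and the groups overlapped (exact p = 0.5). In WT exposed to 37 °C the IP values were not lower: they were 5.73%, 7.10% and 5.52% in IP, against 5.71%, 5.55% and 5.66% in input, with overlapping groups and the higher mean in IP. Mean shares were 5.29% in IP and 5.55% in input for the met-2 deletion, and 5.28% in IP and 5.66% in input for met-2-CD. The differences between these groups were not tested. Of the 11621 windows with an H3K27ac log2 ratio of at least 1 in 2 of the 3 replicates, 492 (4.23%) lay in H3K9me2 domains, against 5.79% of all nuclear windows. Within arms the share was 6.56% of the H3K27ac windows, against 8.41% of all arm windows, and within centers 0.77%, against 0.57%. At least 1 such window was found in 231 domains (9.82%).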

How the data were processed

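Paired-end reads were mapped by the authors with QuasR to the ce10 genome. Only unique alignments were kept, and the deposited values are raw counts in 500-bp windows. Each mate was counted, so reads are not independent molecules, and intervals from counting alone would be too narrow. Library totals stand at the opening of the results. Samples were grouped by their labels. Each library was scaled by its nuclear total (28 mitochondrial windows left out) to the mean of the 4 totals, and log2 ratios of IP to input used a pseudocount of 2. Windows and 100-kb bins with a mean count of at least 10 were tested with edgeR 4.0.16 (quasi-likelihood, Benjamini-Hochberg) in R 4.3.3, without a replicate block. The study set each IP against its matched input when calling peaks, and deviations of IP and input with the same number had r = 0.36 across windows, so the block is given as well. DESeq2 1.42.0 was an alternative. Shares were compared with exact permutation tests in scipy 1.17.1, and figures were drawn with matplotlib 3.10.9. Named regions are the longest and the highest domain and the longest empty stretch of each chromosome, and the highest and lowest bins. The rules for domains, segments and regions were chosen with earlier results of these data known. The steps were tested on simulated data. At the estimated dispersion the test of bins called 34% of bins raised by a log2 of 1 and 16% of those lowered as much. At a log2 of 2 it called 100% and 96%. The test of windows called none at that dispersion, and planted runs were recovered as domains. Other ChIP-seq groups were read only in the domains, and RNA-seq and imaging were not analysed here.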

Additional observations from a re-analysis of the deposited data

Results flagged for a closer look

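In libraries outside the main comparison, the H3K9me2 IP of WT exposed to 37 °C had a mean of 11.8% of its nuclear reads in the 20 °C domains, with both IP values (11.64% and 11.89%) above both input values (7.85% and 9.71%). In domains called from replicate 2 alone the groups overlapped, with 10.5% and 10.7% in IP, against 9.41% and 13.9% in input. The cause was not tested.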

How the results depend on the processing

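The number of domains depended on its definition. Against 2352, it was 4757 at a threshold of 0.5, 930 at 1.5, 4729 with at least 2 windows, 876 with at least 5, 1095 when both replicates had to pass in every window, 3692 with totals of all windows and 5459 with scaling by the median window, and it lay between 1824 and 3495 with 1 replicate left out. The share of nuclear windows in domains, 5.79%, ranged from 2.16% at a threshold of 1.5 to 14.7% with scaling by the median window. The median gap, 9000 bp, ranged from 5000 bp with at least 2 windows to 20500 bp with at least 5. The share of domain windows in arms, 88.2%, was 83.9% at a threshold of 0.5, 92.6% at 1.5, 82.5% with centers as the middle 50% of a chromosome, 92.9% with tips of 200 kb and 82.6% with scaling by the median window, and between 83.2% and 88.9% with 1 replicate left out. The share of X in domains, 1.98%, was 6.52% at a threshold of 0.5, 4.17% with totals of all windows and 8.26% with scaling by the median window, and between 1.47% and 4.5% with 1 replicate left out. The difference of X minus autosomes, −0.22, was −0.36 from summed reads, −0.29 with input 2 under both IPs and −0.29 with the H3K27ac inputs. The excess of arms in read share, 7.41 percentage points, was 9.65 without windows of high input, and that of tips, 2.95, was 0.95. Scaling by the median window, other inputs and leaving out high-input windows were chosen after seeing the data.

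The replicate block, which pairs each IP with the input of its number, moved the called bins to 519 (147 higher and 372 lower), against 40 without it (31 higher and 9 lower), and the higher windows to 73, against 81. Called bins were 13 with TMM factors, 140 and 131 with DESeq2 (nuclear totals and its own size factors), and between 1 and 43 with 1 library left out. Higher windows were 20 with TMM factors, 50 with totals of all windows, 8001 and 29 with DESeq2 (nuclear totals and its own size factors), and between 0 and 25345 with 1 library left out. In all, 88 of 125 alternatives to the main results were counted as unchanged, and none of the differences reversed its sign. Bins entered this tally as higher and lower together, so the switch to a majority of lower bins was not counted as a reversal. Unchanged meant within the SD of the single-replicate values, within 1.5 times the count or, for H3K27ac shares, of the same sign. Domains from replicate 1 alone, with an H3K27ac difference of −0.14 against −0.54 percentage points, were thus counted as unchanged. For log2 differences and read shares, leaving out 1 replicate falls within that SD by construction and is no check. The depth of input 1, with a median of 28 reads per window, limits single windows.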
